A study of Mus musculus with 12 samples.

Results

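Ifitm1, AW112010 and Fxyd5 are 3 of the 9984 genes named on the arrays of this study, and together they are measured by 4 probe sets of 18719, because Ifitm1 has 2. They were chosen by these arrays, because multipotent progenitors without Erg fell below the level of both control populations. The values of Erg -/- progenitors against either control are therefore described here without a test. Erg is a transcription factor of the ETS family that blood stem cells need for self-renewal.

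The arrays compared 4 groups of sorted marrow cells from male C57Bl/6 mice, backcrossed for at least 6 generations, with 3 arrays each. Hematopoietic stem cells (HSCs) were sorted from Erg +/+ and Erg +/- mice with the gate Lineage-, Sca-1+, c-kit+, CD150+, CD48-, the Erg +/- mice being derived from the floxed line by a general Cre deleter. The multipotent progenitor (MPP) groups were Erg fl/fl without Cre and Erg -/-, where Mx1-Cre deleted the floxed exon of the DNA-binding domain. The Mx1 promoter responds to interferon. All MPP donors, Cre carriers or not, had 5 injections of the interferon inducer pIpC at intervals of 2 days (200 µl at 1.5 mg/ml) and were used 2 weeks after the first injection. Labels name no pIpC for the HSC groups and give no ages. They disagree on the MPP gate, which is CD150-negative in the sorting field and repeats the HSC gate in the source field. Titles call the Erg +/- samples knock-outs, and the genotype field was followed. The 2 MPP groups also differ in Mx1-Cre, so genotype and Cre cannot be told apart, and MPPs differ from HSCs in pIpC and in the floxed allele as well as in cell type.

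Ifitm1 encodes a small membrane protein of the interferon-induced transmembrane family, whose members hinder the entry of enveloped viruses into cells. Stem cells of several tissues express such genes without infection. AW112010 is annotated as a long noncoding RNA, although translation from it has been described in activated macrophages, and it is known as a gene induced by inflammatory signals in immune cells. Fxyd5 encodes dysadherin, a single-pass membrane protein that modulates the sodium pump and weakens contacts between cells.

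The promoter windows of the 3 genes are shown because the factor removed in these mice binds DNA through the ETS core GGAA. Binding of Erg to them was not measured here. Each window runs from 250 bases before to 50 bases after 1 RefSeq start site in build GRCm38.p6, and capitals mark GGAA on either strand (TTCC on the strand shown). The Ifitm1 window lies at chr7:140967826-140968125 on the plus strand, that of AW112010 at chr19:11050517-11050816 and that of Fxyd5 at chr7:31042282-31042581, both on the minus strand.
Ifitm1: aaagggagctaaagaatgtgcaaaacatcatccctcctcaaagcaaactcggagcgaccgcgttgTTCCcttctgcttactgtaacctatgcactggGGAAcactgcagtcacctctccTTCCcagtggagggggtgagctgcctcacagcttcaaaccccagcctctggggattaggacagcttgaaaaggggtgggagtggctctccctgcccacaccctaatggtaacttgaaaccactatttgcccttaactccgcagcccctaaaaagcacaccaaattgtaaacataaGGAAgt
AW112010: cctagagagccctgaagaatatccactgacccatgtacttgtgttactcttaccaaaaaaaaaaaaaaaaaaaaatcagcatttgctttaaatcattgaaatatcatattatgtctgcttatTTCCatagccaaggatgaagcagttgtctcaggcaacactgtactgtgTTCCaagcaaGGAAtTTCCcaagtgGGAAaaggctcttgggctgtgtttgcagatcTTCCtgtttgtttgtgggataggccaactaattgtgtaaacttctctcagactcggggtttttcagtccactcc
Fxyd5: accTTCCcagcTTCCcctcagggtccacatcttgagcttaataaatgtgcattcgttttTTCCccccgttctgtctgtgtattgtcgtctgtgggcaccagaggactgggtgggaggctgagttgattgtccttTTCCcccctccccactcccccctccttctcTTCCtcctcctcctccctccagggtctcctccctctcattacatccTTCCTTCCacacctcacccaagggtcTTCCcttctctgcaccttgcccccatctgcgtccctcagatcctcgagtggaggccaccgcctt

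The Ifitm1 window held 4 matches to GGAA, that of AW112010 6 and that of Fxyd5 8. Among the 32851 RefSeq windows of the same length, 96% held at least 1 match and the median was 3. At least as many as in Ifitm1 were found in 46.3% of windows, as in AW112010 in 15.7%, and as in Fxyd5 in 3.72%. All 8 matches of Fxyd5 read TTCC on the strand shown, in a stretch rich in pyrimidines. The longer ETS motif GGAAGT, which contains the core, occurred in Ifitm1 alone of the 3, at base 45 after the start, and in 23.8% of all windows. On either strand, an interferon-stimulated response element (GAAA, any 2 bases, GAAA), a gamma-activated sequence (TTCNNNGAA) and the RUNX motif TGTGGT had 0 matches in the 3 windows, against 3.44%, 8.3% and 16.8% of all windows. These letters were searched in these windows only, and a match is not a binding site. The GC content was 51.3% for Ifitm1, 40% for AW112010 and 57.3% for Fxyd5, beside a median of 52.7%.

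All 4 probe sets showed the same order of groups. Levels were highest in HSCs of either genotype, lower in Erg fl/fl MPPs, and lowest in Erg -/- MPPs. Values are on the deposited log2 scale, on which 1 unit is a doubling, and are compared between groups within a probe set, not between probe sets.

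Ifitm1 stood at 12.27, 12.06 and 12.11 on the Erg +/+ HSC arrays and at 12.30, 12.14 and 12.28 on the Erg +/- HSC arrays. In MPPs the values were 11.17, 11.04 and 10.98 with Erg fl/fl and 9.31, 9.27 and 9.63 with Erg -/-. The HSC groups overlapped, and the 2 MPP groups lay apart from the HSCs and from each other. The lowest Erg fl/fl array was 1.35 above the highest Erg -/- array. Separation in this direction was seen for 6.1% of genes between the MPP groups, for 9.54% between Erg -/- MPPs and Erg +/+ HSCs and for 5.47% between Erg -/- MPPs and Erg +/- HSCs, and held for all 4 probe sets in each, as the choice of genes requires for the first 2. From Erg fl/fl to Erg -/- MPPs the mean went from 11.06 ± 0.0973 to 9.40 ± 0.198 (SD, n = 3 each), 3.16-fold lower.

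The second probe set of Ifitm1 lists the same 6 transcripts as the first. It stood at 11.92, 11.96 and 12.04 in Erg +/+ HSCs, at 12.20, 12.09 and 12.22 in Erg +/- HSCs, at 10.85, 10.50 and 10.48 in Erg fl/fl MPPs, and at 8.60, 8.39 and 8.83 in Erg -/- MPPs. Here no 2 groups overlapped. The mean was 10.61 ± 0.205 in Erg fl/fl and 8.61 ± 0.224 in Erg -/- MPPs (SD, n = 3 each), 4.01-fold lower. Over the 12 arrays the 2 probe sets correlated at r = 0.998, and at 0.758 after subtraction of the group means. Whether they measure 1 locus is not known from the annotation.

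AW112010 gave 10.10, 9.99 and 9.91 in Erg +/+ HSCs and 9.96, 9.56 and 9.81 in Erg +/- HSCs. It gave 8.59, 8.54 and 8.07 in Erg fl/fl MPPs and 6.61, 6.39 and 6.33 in Erg -/- MPPs. The HSC groups overlapped by 0.05, and every MPP array lay below every HSC array. From 8.40 ± 0.29 with Erg fl/fl to 6.44 ± 0.149 with Erg -/- (SD, n = 3 each), the noncoding RNA was 3.89-fold lower, and it was 11.8-fold below Erg +/+ HSCs.

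Fxyd5 stood at 11.56, 11.52 and 11.86 in Erg +/+ HSCs and at 11.70, 11.62 and 11.81 in Erg +/- HSCs. In MPPs it stood at 10.47, 10.23 and 10.04 with Erg fl/fl and at 9.06, 8.90 and 9.11 with Erg -/-. The Erg +/- HSC arrays lay within the range of the Erg +/+ arrays, and the MPP groups were separate, with 0.93 between their nearest arrays. The means were 10.25 ± 0.214 and 9.03 ± 0.111 (SD, n = 3 each), 2.33-fold lower in Erg -/- MPPs.

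**Figure D1:**
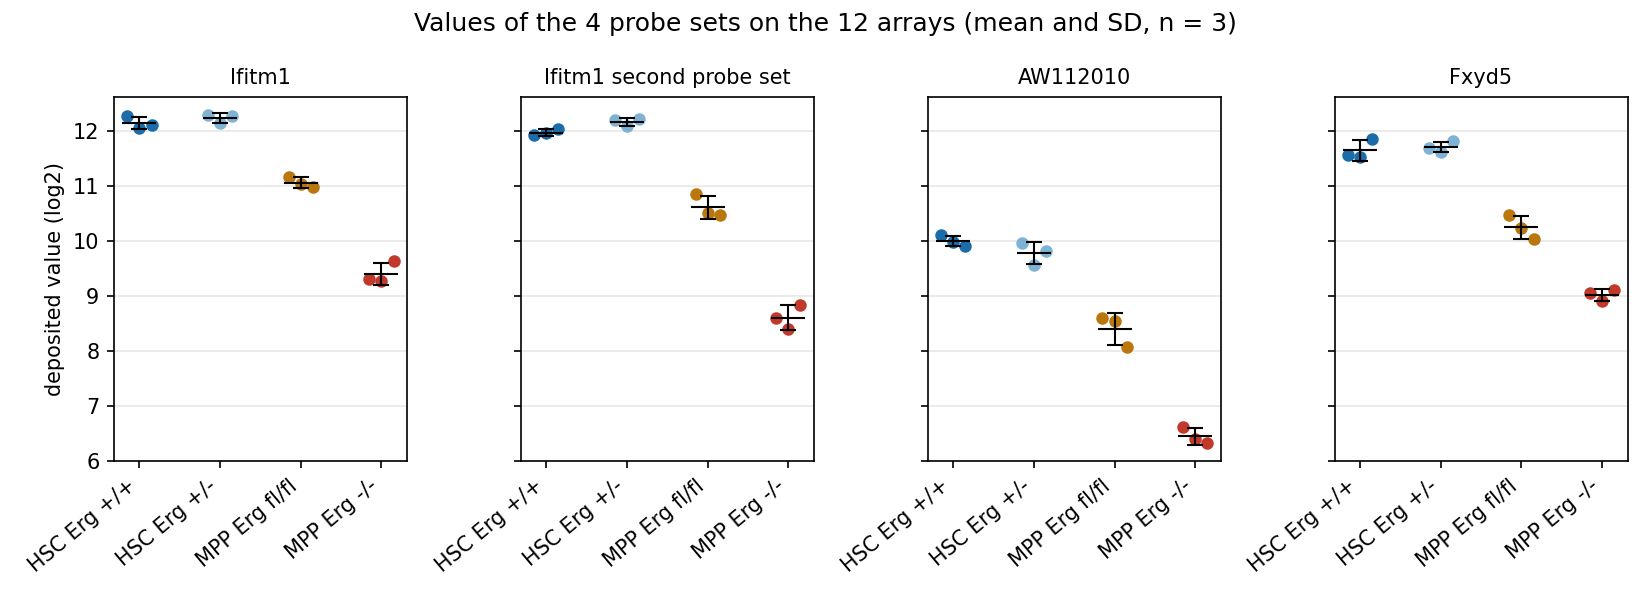
Deposited log2 values of the 4 probe sets (vertical axes) on the 12 arrays by group (horizontal axes); points are arrays, and black marks give the mean and SD of 3 arrays. In each panel the HSC groups lie highest and the MPP Erg -/- arrays lowest, for AW112010 between 6.33 and 6.61.

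Loss of 1 Erg allele left the 3 genes without a detectable difference in HSCs, a comparison that the choice of genes did not use. Ifitm1 differed by 0.09 log2 units between Erg +/- and Erg +/+ HSCs, with a 95% interval from -0.25 to 0.43 (limma, SE 0.155, adjusted p = 0.98). AW112010 differed by -0.23, from -0.62 to 0.17 (SE 0.183, adjusted p = 0.92), and Fxyd5 by 0.06, from -0.30 to 0.42 (SE 0.166, adjusted p = 0.984). For the second Ifitm1 probe set, in the fit over all 18719 probe sets, the difference was 0.20, from -0.16 to 0.56 (adjusted p = 0.955). Its groups did not overlap, which was the case for 10.4% of genes in either direction. The lowest end of these intervals was -0.62, for AW112010, and changes within the intervals cannot be told from none. The HSC differences were not tested against the falls between the MPP groups, which chose the genes and concern loss of both alleles. In this comparison 0.02% of genes passed the threshold (adjusted p below 0.05 over 9984 genes), 0 of the 3 among them, and 0.0107% of all probe sets. The Fxyd5 difference had no stable sign, at -0.00056 after a repeated quantile normalisation.

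The 3 genes were lower in MPP than in HSC controls, a difference that the choice did not use, although it used the level of both groups. AW112010 was 3.03-fold lower in Erg fl/fl MPPs than in Erg +/+ HSCs (-1.60 log2 units, SE 0.183, limma, adjusted p = 0.00104). Fxyd5 was 2.64-fold lower (-1.40, SE 0.166, adjusted p = 0.00126) and Ifitm1 2.12-fold lower (-1.08, SE 0.155, adjusted p = 0.00558). The second Ifitm1 probe set was 2.57-fold lower (-1.36, SE 0.162, adjusted p = 0.00631 over all probe sets), a call that was lost with only the control arrays in the fit (adjusted p = 0.108). Of all genes 0.631% were called lower in this comparison, and of all probe sets 0.219%. The control groups did not overlap for any of the 4 probe sets, as for 8.54% of genes in this direction, and the median of all genes was higher by 0.122. In order of the difference from the lowest of 9984 genes, AW112010 ranked at 39, Fxyd5 at 62 and Ifitm1 at 178. In bulk samples fewer cells of a type and less RNA per cell cannot be told apart.

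On the log2 scale, the whole fall from Erg +/+ HSCs to Erg -/- MPPs amounted to a difference of -2.75 for Ifitm1, -3.56 for AW112010 and -2.62 for Fxyd5. The step between the controls made up 39.5% of it for Ifitm1, 44.9% for AW112010 and 53.4% for Fxyd5, and the step between the MPP groups the remainder. The 2 steps share the Erg fl/fl arrays, so an error in those arrays moves them in opposite directions. Every Erg fl/fl array also lay below every Erg +/- HSC array for the 4 probe sets, with 0.96 between the nearest arrays for AW112010, 0.97 for Ifitm1 and 1.16 for Fxyd5. Groups lay apart in this way and direction for 6.38% of genes. Within the MPP comparison, which chose the genes, AW112010 ranked at 8 from the lowest of 9984 differences, Ifitm1 at 12 and Fxyd5 at 31.

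The genes were chosen by Erg -/- MPPs against the 2 control populations, and a stricter pattern that adds the Erg +/- HSCs, all 3 Erg -/- MPP arrays below the 9 other arrays, was met by 37 genes, or 0.371%. By the gap between the highest Erg -/- MPP array and the lowest other array, AW112010 ranked 1 with 1.46, Ifitm1 2 with 1.35 and Fxyd5 3 with 0.93. The next were Vpreb1, which encodes a surrogate light chain protein of B cell precursors, with 0.45 and Mmrn1, which encodes multimerin, with 0.35. The last gene inside was Rngtt, with 0.005, and the first outside Stk4, with -0.001. In 7 of the 37 every HSC array also lay above every Erg fl/fl MPP array. Beside the 3 genes these were Mmrn1, the endoglin gene Eng, the glycolipid transfer protein gene Gltp and Pofut2, an enzyme of protein fucosylation, named after its values were seen. Vpreb1 had another order, with means of 7.11 in Erg +/+ HSCs, 10.11 in Erg fl/fl MPPs and 5.36 in Erg -/- MPPs.

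**Figure D2:**
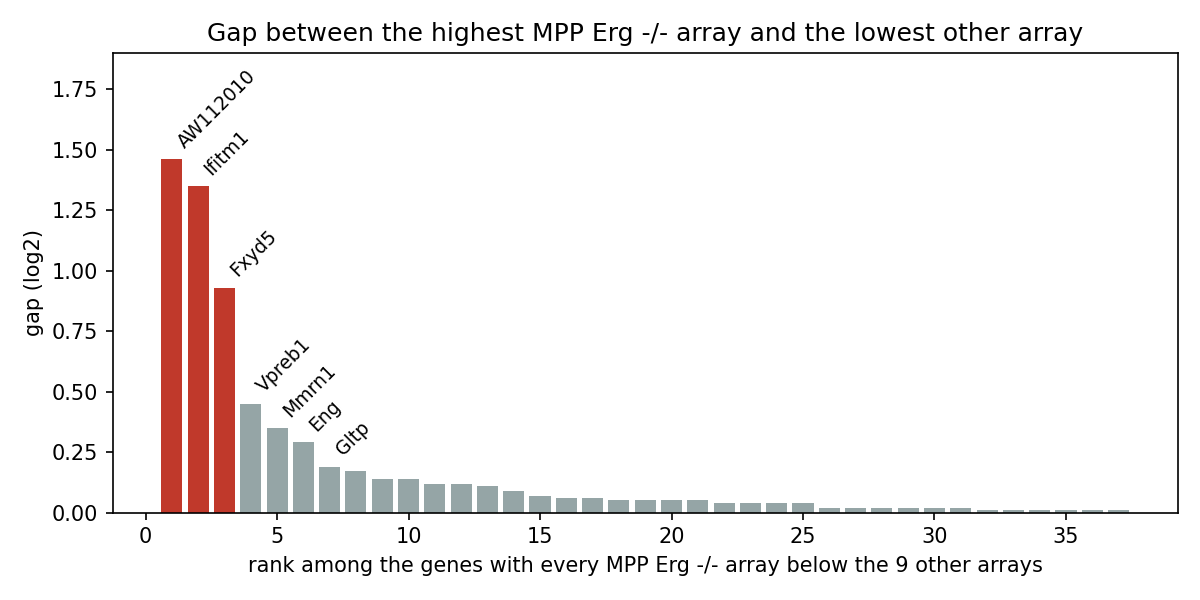
Gap in log2 units (vertical axis) between the highest MPP Erg -/- array and the lowest of the 9 other arrays, for the 37 genes in which it is above 0, by rank (horizontal axis). The 3 red bars are AW112010 (1.46), Ifitm1 (1.35) and Fxyd5 (0.93), and the next bar, Vpreb1, is at 0.45.

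Across the 12 arrays each of the 3 genes was most like the other two of all named genes, which follows in part from the group levels that chose them. Pearson r was 0.989 for Ifitm1 and AW112010, 0.984 for Ifitm1 and Fxyd5, and 0.983 for AW112010 and Fxyd5. After subtraction of the group means the same correlations were 0.300, 0.469 and 0.419, so most of the likeness lies between groups. The second Ifitm1 probe set and Fxyd5 still correlated at 0.796. The arrays share their group and normalisation, and no p is given.

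The next most similar genes were the same for all 3, Gltp, Mmrn1 and Eng. With Fxyd5 they correlated at 0.958, 0.946 and 0.949, with Ifitm1 at 0.907, 0.900 and 0.897, and with AW112010 at 0.905, 0.909 and 0.915. They fell mostly between the controls. Mmrn1 went from 8.90 in Erg +/+ HSCs to 4.60 in Erg fl/fl MPPs and 3.81 in Erg -/- MPPs, and Eng from 10.03 to 6.42 and 5.85. Gltp went from 9.42 to 7.47 and 7.07. By limma all 3 were lower in MPP controls (adjusted p = 2.13e-07 for Mmrn1 and Eng and 7.62e-05 for Gltp). Between the MPP groups Mmrn1 differed by -0.79 and Eng by -0.57, and neither passed (adjusted p = 0.497 and 0.681).

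**Figure D3:**
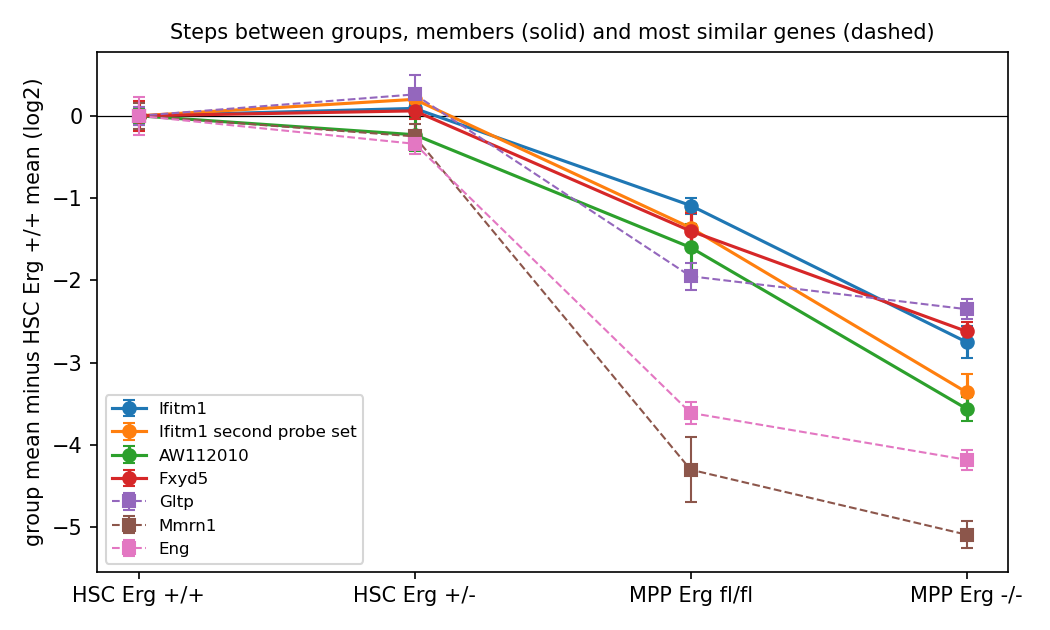
Group means minus the HSC Erg +/+ mean in log2 units (vertical axis) for the 4 groups (horizontal axis), with the SD of 3 arrays as bars; solid lines are the 4 probe sets, dashed lines Gltp, Mmrn1 and Eng. The solid lines drop at both steps, AW112010 to -3.56, whereas Mmrn1 and Eng drop mostly between HSCs and MPP Erg fl/fl.

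No relative of Ifitm1 was called in any comparison. The IFITM list held 10 genes, of which Ifitm5, a family member of bone, and Ifitm10 were measured beside Ifitm1. Ifitm5 stood at 0.37 and Ifitm10 at -0.14 log2 units in Erg -/- against Erg fl/fl MPPs, and at -0.06 and 0.61 between the controls. The value closest to the threshold was that of Ifitm10 between the controls (limma, smallest adjusted p = 0.112). Ifitm2, Ifitm3 and Ifitm6, which lie beside Ifitm1 on chromosome 7, were not analysed here.

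Of the 7 FXYD genes, small regulators of the sodium pump, Fxyd2, Fxyd3 and Fxyd7 were measured beside Fxyd5. Between the MPP groups they stood at 0.01, -0.02 and -0.02 log2 units, and between the controls at 0.29, 0.30 and -0.23. None passed in any of the 3 comparisons. Of 8 sodium pump subunits, the pump on which FXYD proteins act, 3 beta chain genes were measured. Atp1b2 stood at 0.07, Atp1b3 at -0.37 and Atp1b4 at 0.32 between the MPP groups, with adjusted p = 0.998 each. In Erg +/- HSCs Atp1b2 stood at 1.20 and did not pass (limma, adjusted p = 0.781). Its SD was 1.33 over the Erg +/- HSC arrays and 0.107 over the Erg +/+ HSC arrays.

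Genes that neighbour the 3 on their chromosomes were taken as the 5 protein-coding genes on either side. Around Ifitm1 4 were measured. Pgghg, a glycosidase of collagen sugars, was lower in MPP than in HSC controls by 1.10 log2 units (limma, difference -1.10, adjusted p = 0.0324), and it missed the threshold with a replicate block (0.0545), with all probe sets (0.0991) with only the control arrays (0.0628), and without Erg +/+ HSC replicate 1 or 3 or any 1 of the Erg fl/fl MPP arrays. Between the MPP groups Pgghg stood at 0.20, Nlrp6 at 0.19, Ifitm5 at 0.37 and the plakophilin gene Pkp3 at -0.01. Around AW112010, on chromosome 19, Ccdc86 and 3 genes of the Ms4a cluster (Ms4a10, Ms4a12 and Ms4a19) stood between -0.07 and 0.20. Around Fxyd5, on chromosome 7, the transcription factor gene Usf2 stood at -0.03, the lipoprotein receptor gene Lsr at 0.21 and Fam187b at 0.41. Hamp, which encodes the iron hormone hepcidin, stood at 1.37 (limma, adjusted p = 0.998). Its means, 3.55 in Erg fl/fl and 4.92 in Erg -/- MPPs, were dim and lay below the array medians. None of these neighbours passed between the MPP groups, where 0.0801% of all genes were called, all of them lower.

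Ifitm1 and AW112010 are both known as genes induced by interferon or inflammation, and the wider interferon lists were read beside them. Of 61 listed type I interferon response genes 21 were measured, and 0 passed between the MPP groups. Their differences there ran from -0.66 to 1.02 with a median of -0.01, beside a median of -0.004 for all genes. Ifit3, a classic interferon-induced gene, stood at 1.00 and Ifi203, a nuclear sensor gene, at -0.56, the smallest p-values of the list (limma, adjusted p = 0.946 each). Between the MPP groups 478 of 9984 genes had an unadjusted p under 0.05 (limma), before any correction for the number of tests. In this list these were Ifit3 (0.011), Ifi203 (0.00946) and Ifi27l2a (0.0419).

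Between the controls the type I list ran from -1.35, for Ifit3, to 0.74, for Oasl1, with a median of -0.10 beside 0.122 for all genes. None passed (limma, smallest adjusted p = 0.0729, for Ifit3). Before correction, 2226 of 9984 genes had p under 0.05 between the controls (limma), 790 of them lower in MPPs. In this list the lower ones were Ifit3, Oas1a (-1.30), Rsad2 (-1.10), Mx2 (-0.98), Helz2 (-0.72) and Epsti1 (-0.59), and Oasl1 was higher. The MPP mice were used 2 weeks after the first of several pIpC injections, and the labels name no pIpC for the HSC mice. Whether pIpC acted on these genes was not tested. In Erg +/- HSCs the list ran from -0.44 to 0.62 with a median of -0.01, and 0 passed (smallest adjusted p = 0.559, for Oasl1 at 0.62).

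Of 40 interferon gamma response and antigen presentation genes 15 were measured. Between the MPP groups 13 of the 15 had negative differences, from -0.54 for the class II gene H2-Eb1, with a median of -0.22, and 0 passed (limma, smallest adjusted p = 0.998). Between the controls Irf8, a transcription factor of monocyte and dendritic cell progenitors, was higher by 1.05 log2 units (adjusted p = 0.0364), and it missed the threshold after median centring (0.0639), with all probe sets (0.109) with only the control arrays (0.0864), and without Erg +/+ HSC replicate 1 or 2, any 1 of the Erg fl/fl MPP arrays, or Erg -/- MPP replicate 1 or 3. It was the 1 gene of this list called, where 1.28% of all genes were called in either direction and 0.651% higher. In Erg +/- HSCs Irf1, an interferon-induced factor, stood at -0.98, H2-Eb1 at -0.67 and the chemokine gene Cxcl9 at -1.14. None of them passed (limma, adjusted p = 0.559, 0.74 and 0.871), and Cxcl9 had an SD of 1.77 over the Erg +/+ HSC arrays.

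Receptors and signalling genes upstream of interferon responses, 7 measured of 28, gave no call in any of the 3 comparisons. The receptor chain genes Ifnar2, Ifngr1 and Ifngr2 stood at -0.09, -0.18 and 0.33 between the MPP groups. The feedback inhibitor genes Socs1 and Socs3 stood at 0.26 and -0.03.

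**Figure D4:**
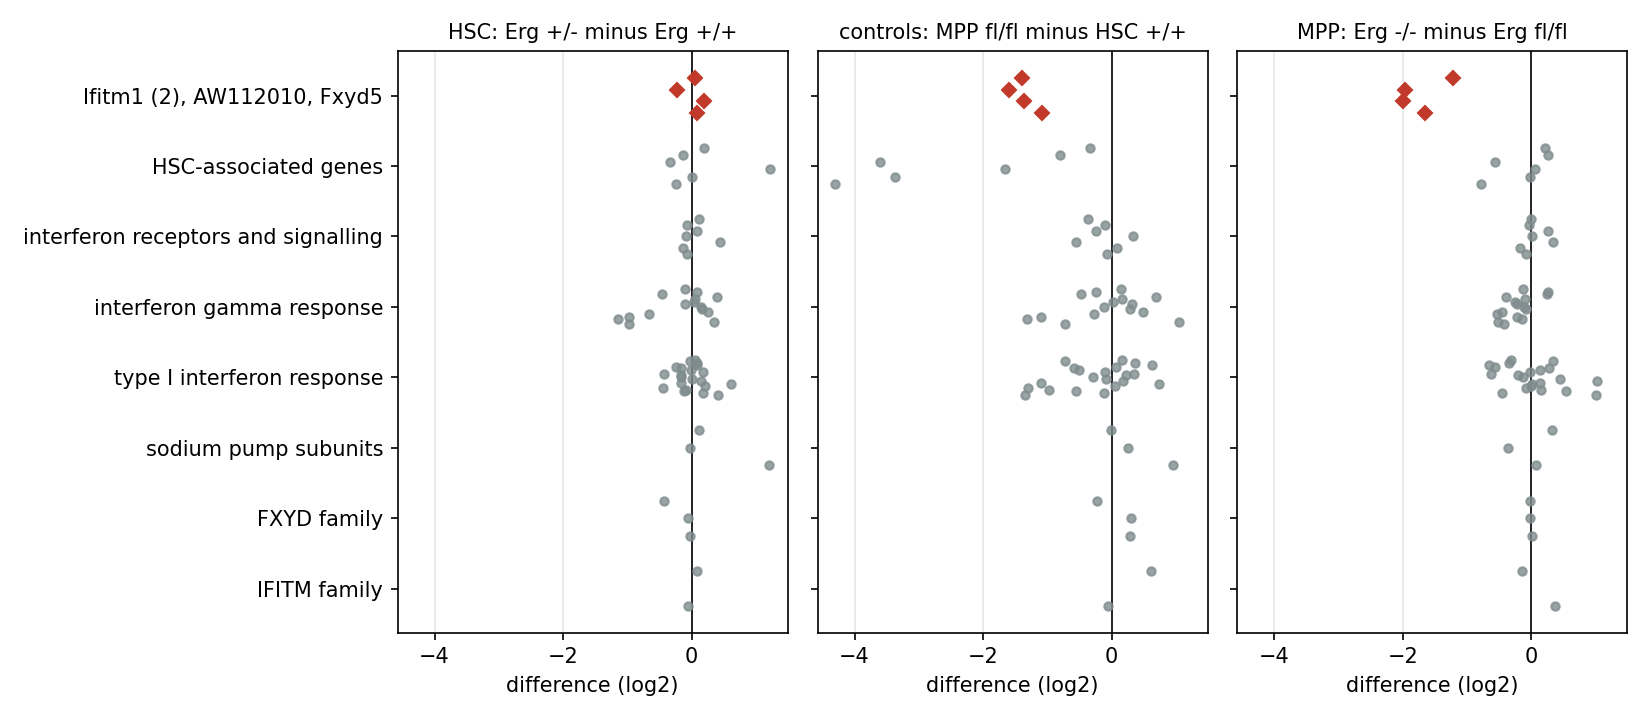
Differences in log2 units (horizontal axes) in the 3 comparisons for the 4 probe sets (red diamonds) and for each measured gene of 7 lists (grey points, 1 row per list). Between the MPP groups the red diamonds lie between -2.00 and -1.22, and the interferon, IFITM, FXYD and sodium pump genes between -0.66 and 1.02.

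The summed level of HSC-associated genes, as log2 of the summed linear values, was 11.29 to 11.62 on HSC arrays and 8.93 to 9.09 on MPP arrays, and that of MPP-associated genes 9.10 to 9.57 and 10.20 to 11.30. Of 32 listed HSC-associated genes 6 were measured beside Ifitm1, and 4 were called lower in MPP controls, where 0.631% of all genes were: Mmrn1 (-4.30 log2 units), Eng (-3.61), the transglutaminase gene Tgm2 (-3.37) and the stress-response gene Nupr1 (-1.66). Hoxa9, a homeobox gene, stood at -0.80 and the repressor gene Gfi1 at -0.33, and neither passed (limma, adjusted p = 0.0993 and 0.33). Between the MPP groups 0 of the 6 passed and the median was 0.02. There Mmrn1 stood at -0.79, Eng at -0.57, Tgm2 at -0.02, Nupr1 at 0.05, Gfi1 at 0.21 and Hoxa9 at 0.26. The control and MPP comparisons share the Erg fl/fl arrays. Of 5 measured MPP-associated genes, out of 19 listed, the receptor gene Flt3 (2.57) and the leukocyte antigen gene Cd53 (2.10) were higher in MPP controls. Cd53 missed the threshold with all probe sets (limma, adjusted p = 0.118) and with only the control arrays (0.0659). It also missed it without Erg +/+ HSC replicate 1 or 3 or Erg fl/fl MPP replicate 1 or 2. Between the MPP groups 0 of the 5 MPP-associated genes passed, 4 had negative differences, and the median was -0.65. Their sums were 10.52 to 11.30 in Erg fl/fl and 10.20 to 10.76 in Erg -/- MPPs.

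Among markers of other marrow cells, 2 of 7 B cell, 1 of 6 mast cell and basophil and 1 of 9 T and NK cell genes were called lower between the MPP groups, where 0.0801% of all genes were, and the others did not pass. B cell markers (7 of 19 measured) had a summed level of 11.99 to 12.24 in Erg fl/fl and 11.57 to 11.68 in Erg -/- MPPs, with Vpreb1 and Igll1, another surrogate light chain gene, called lower (limma, adjusted p = 0.00326 and 0.000442). Of the others of that list Ebf1 stood at -1.23, Cd79a at -0.74, Pax5 at -0.19, Blnk at 0.12 and Cd24a at 0.05. None of these passed (limma, adjusted p = 0.152 for Ebf1 and 0.998 for each of the rest). Mast cell and basophil markers (6 of 17) had sums of 8.18 to 9.55 and 7.37 to 7.63, with the basophil protease gene Mcpt8 called lower (adjusted p = 0.0029). The Mcpt8 call was lost with the first Erg +/+ HSC and first Erg fl/fl MPP arrays both left out (0.0512). Of the other mast cell and basophil genes Ms4a2 stood at -0.64 and Hdc at -0.37, and Mcpt1, Cd200r3 and Il6ra at 0.35, 0.14 and 0.09, none of which passed. T and NK cell markers (9 of 27) had sums of 9.71 to 9.96 and 8.62 to 9.08, with the cytotoxic granule gene Nkg7 called lower (adjusted p = 0.0274). That call was lost with all probe sets (0.215) and without Erg +/- HSC replicate 2 or any 1 of the 6 MPP arrays. The other 8 genes of that list stood between -0.32 and 0.07, and the T cell receptor complex gene Cd3d between 3.71 and 3.73 in all 4 group means. RMA values have no true 0. A sum of linear values is weighted to the brightest genes, so a lower sum need not be a fall of the whole list. Between Erg fl/fl and Erg -/- MPPs the mean of Nkg7 went from 8.95 to 5.90 and that of Mcpt8 from 8.50 to 4.96. Cd24a, the brightest B cell marker measured, stood at 11.46 and 11.51. In Erg +/+ HSCs the B cell, mast cell and basophil, and T and NK cell sums were 11.42 to 11.68, 7.17 to 7.35 and 8.10 to 9.27. Each lay below the Erg fl/fl range of its list. HSCs also differ from MPPs in cell type, pIpC and the floxed allele. The part of B, T, NK, mast cells and basophils in the fall of the 3 genes between the MPP groups was not tested.

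Endothelial and stromal markers (8 of 22 measured) had sums of 9.19 to 10.23 in Erg +/+ HSCs, 8.49 to 8.69 in Erg +/- HSCs, 8.77 to 9.24 in Erg fl/fl MPPs and 8.64 to 8.86 in Erg -/- MPPs. The matrix protein gene Sparc was called lower in Erg +/- HSCs (-2.08 log2 units, adjusted p = 0.0401) and in MPP controls (-1.40, adjusted p = 0.0351). Both calls were lost with all probe sets (adjusted p = 0.119 and 0.113) and with only the arrays compared (0.206 and 0.0503), and the HSC call also with a replicate block (0.0863) and with mean values of probe sets (0.0593). Of the 12 arrays, leaving out any 1 of 8 ended the HSC call and any 1 of 5 the control call, among them Erg +/+ HSC replicates 1 and 3 and Erg fl/fl MPP replicates 2 and 3 for both. The ranges of the marker sums in Erg +/- HSCs and Erg -/- MPPs overlapped. The part of endothelial and stromal cells in the levels of Ifitm1, AW112010 and Fxyd5 was not tested.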

How the data were processed

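The deposited values are log2 values that the authors made from Affymetrix gene arrays with RMA and the affy package, per the submitters' processing notes, with no version given. The sources used here do not say if the 12 arrays were normalised jointly. RMA compresses folds of dim genes. Array medians lay between 5.408 and 5.544, interquartile ranges between 2.505 and 2.989, and replicate arrays had r between 0.9528 and 0.9743. Arrays carry no read depth, and 3 per group limits the precision.

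Of 18719 probe sets the probe annotation gives 10657 1 gene symbol and 523 several, and 7539 are unnamed. Symbols were updated through RefSeq (GRCm38.p6), where 9934 gene IDs matched and 51 did not. A gene was represented by its probe set of highest mean, which left 9984 genes. A limma model (limma 3.58.1, R 4.3.3) with 1 mean per group over 12 arrays had 8 residual and 4.352 prior degrees of freedom. Tests were two-sided, with Benjamini-Hochberg adjustment and a threshold of 0.05. The second Ifitm1 probe set was taken from the same fit over all probe sets. The fit was tested on simulated data. Tables and plots were made with Python 3.11.15.

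The genes and the 15 lists (336 genes, 115 measured) were chosen with earlier results of these data known. Named genes follow a rule: all probe sets of the 3 genes, all measured relatives, pump subunits and neighbours, the 5 most similar genes and the 5 widest gaps, and of other lists up to 4 called genes per comparison or 2 of smallest p. Pofut2 and several further list members were picked for the text with their values known. Separate animals are not stated in the labels, and p-values then reflect only variation among these samples, possibly technical. Erg itself is not analysed here, so genotypes were not checked on it. Promoter windows came from a RefSeq table, in which all 3 genes matched.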

Additional observations from a re-analysis of the deposited data

Results flagged for a closer look

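The second probe set of Ifitm1 had differences of opposite sign in the 2 populations. Every Erg +/- HSC array lay above every Erg +/+ HSC array, with a difference of 0.2 log2 units that did not pass (limma, adjusted p = 0.955). HSC groups lay apart in this way, in either direction, for 10.4% of genes. Every Erg -/- MPP array lay below every Erg fl/fl MPP array, with a difference of -2.0. The difference between these effects was not tested, since the MPP values chose the gene. The first Ifitm1 probe set, at 0.09 in HSCs, overlapped between the HSC genotypes.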

How the results depend on the processing

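The falls between the MPP groups moved by less than the larger SD of the 2 MPP groups under each alternative run, including a replicate block, and for Ifitm1 most with the mean of its probe sets (-1.83). With 1 array left out they ranged from -1.78 to -1.59 for Ifitm1, from -2.12 to -1.89 for its second probe set, from -2.13 to -1.86 for AW112010 and from -1.32 to -1.11 for Fxyd5. The control differences stayed past the threshold in each of these settings, with the exception of the second Ifitm1 probe set with only the control arrays (-1.36, adjusted p = 0.108). With 1 array left out they ranged from -1.14 to -1.02 for Ifitm1, -1.48 to -1.30 for its second probe set, -1.69 to -1.43 for AW112010 and -1.51 to -1.29 for Fxyd5. In HSCs no setting gave a call for the 4 probe sets, and Fxyd5 changed sign with repeated quantile normalisation (-0.00056). With the replicate block the HSC differences were 0.09, -0.23 and 0.06 for Ifitm1, AW112010 and Fxyd5. The deviations of same-numbered arrays correlated between -0.085 and 0.104, and those of differently numbered arrays between -0.115 and 0.13. With 3 arrays per group these values cannot settle whether same-numbered arrays were handled together.

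Of all genes in HSCs 2 were called, against 1 with the replicate block, 0 with means of probe sets, 0 with only the HSC arrays, 0 with the first Erg +/+ HSC and first Erg fl/fl MPP arrays both left out, 7 with a filter at the 25th percentile of mean level, 5 with an intensity trend, and 1 to 8 with 1 array left out. In the MPP comparison the count was 8, against 4 with the first Erg +/+ HSC and the first Erg fl/fl MPP array both left out and 5 to 10 with 1 array left out. Between the controls it was 128, against 60 with all probe sets, 61 with only the control arrays, 61 with those same 2 arrays left out and 47 to 152 with 1 array left out. Over all probe sets, all Erg -/- MPP arrays lay below the 9 other arrays 61 times, in place of 37. After subtraction of group means the correlation of the Ifitm1 probe sets was 0.758, and those of the other pairs 0.3, 0.469, 0.283, 0.796 and 0.419. The cause of these changes was not tested.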

Other observations

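Lists not described above gave no call. Of 28 granulocyte and monocyte markers 8 were measured, all with positive differences in Erg +/- HSCs (median 0.45 log2 units, 0 called by limma, smallest adjusted p = 0.789), and Cst7, a cystatin gene, stood at -1.65 between the MPP groups (adjusted p = 0.52). Of 29 erythroid and megakaryocyte markers 14 were measured, 13 of them with positive differences between the MPP groups (median 0.16, 0 called, smallest adjusted p = 0.998). Of 8 adhesion genes linked to dysadherin, the product of Fxyd5, Cdh2 was the 1 measured, at 0.08 between the MPP groups (adjusted p = 0.998).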
